A study of Mus musculus with 47 samples.

Results

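The ribosome biogenesis genes described here are 44 mouse genes whose products make ribosomes in the nucleolus. They were chosen by gene symbol from the known factors of the process, and they are 44 of the 45706 genes in the count tables. By role they are 3 subunits of RNA polymerase I, 5 nucleolar scaffold proteins and chaperones, 4 proteins of the box C/D class of small nucleolar ribonucleoproteins (snoRNPs), 4 of the box H/ACA class, 14 assembly factors of the small ribosomal subunit and 14 of the large subunit. Each symbol matched 1 gene, and all 44 passed the low-count filter in each of the 20 comparisons made.

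Ribosome production starts in the nucleolus, where RNA polymerase I transcribes the precursor of the large ribosomal RNAs. Box C/D snoRNPs guide the methylation of this RNA and box H/ACA snoRNPs its pseudouridylation, while assembly factors cut it, fold it and load it with ribosomal proteins to form the subunits. The transcription factor Myc is known to activate many of these genes, and ribosome production is known to be high in growing cells, so *Myc* was followed in the same libraries.

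The data are polyA RNA-seq of C2C12, a mouse myoblast line that forms myotubes when serum is lowered, carrying a transgene made to be induced by doxycycline (dox). C2C12 iMyoD1 is a polyclonal line with a tagged MyoD1 under a dox-responsive promoter, added by transposition to cells that keep their own gene, and only a portion of its nuclei showed the induced protein. C2C12 iCdh23 and C2C12 iMcam carry an inducible *Cdh23* or *Mcam*, genes of cell adhesion proteins. For C2C12 iMyoD1, 0 h stands for cells kept in growth medium with 20% fetal bovine serum that had dox or vehicle for 24 h. The times of 24, 48 and 120 h count from the change to low-serum differentiation medium, to which dox or vehicle was added. This medium held horse serum and added insulin, transferrin and selenium. Wells for differentiation were also seeded with more cells. Medium, cell number and time thus cannot be told apart between 0 and 24 h. At 120 h, whole cultures were sequenced beside cells that were detached and passed through a 40 µm strainer (the myoblast-enriched fraction) or were held back by it (the myotube-enriched fraction). The other lines were sequenced at 48 h of differentiation. Each of the 16 groups of line, time, fraction and dox had 3 libraries labelled as biological replicates, except the myoblast-enriched fraction with dox, which had 2 (replicates 2 and 3), for 47 in all. No group without a transgene received dox, so the effects of dox itself and of the induced gene cannot be told apart. The 12 libraries of 0 and 24 h carry no batch label and the other 35 carry 1 label, so a shift between 24 and 48 h and a shift between batches cannot be told apart.

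The total estimated count per library lay between 15066352 and 50950687, with a median of 22837945. The whole-culture libraries of 120 h had between 16383 and 17010 genes with a count, fewer than any other library, where the number lay between 17924 and 20255. Levels are in CPM, a gene's count as a share of the library total, scaled with edgeR's TMM factors over all libraries. Fold changes are given as log2 ratios with their standard error (SE) and were tested with edgeR's quasi-likelihood test on the 2 groups compared, and a gene is said to have risen or fallen at a Benjamini-Hochberg adjusted p under 0.05 over all genes tested. Ranges of values given for a gene are over all libraries left out in turn. The p-values measure the spread between the labelled replicates. Where groups are said to overlap or not, this describes the libraries of the named genes. The share of all genes without overlap is not given, so a lack of overlap marks nothing particular to them. *Myod1* was not called higher with dox in C2C12 iMyoD1, at 0.09 (SE 0.0556, edgeR adjusted p = 0.201) at 0 h, -0.23 (SE 0.0571, edgeR adjusted p = 0.00414) at 24 h, -0.36 (SE 0.0595, edgeR adjusted p = 0.000446) at 48 h and -1.62 (SE 0.126, edgeR adjusted p = 1.32e-05) in whole cultures of 120 h, so the induction did not show in these counts. The libraries are bulk samples, in which fewer cells that express a gene and less of its RNA per cell cannot be told apart. Markers of other cell types (10 genes, among them *Pecam1* and *Cdh5*) summed to less than 1 CPM in every group.

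In growing cells without dox the 44 genes were well expressed. Per transcript length, on the scale known as TPM, their median level at 0 h was 38.5 against 4.6 over the 20773 genes with a count. *Npm1*, which encodes the nucleolar chaperone nucleophosmin, was highest at 1568 ± 43.3 TPM (SD, n = 3), ahead of *Ncl*, which encodes the RNA-binding protein nucleolin, at 305 ± 10.5 TPM. The methyltransferase gene *Fbl* (fibrillarin) and *Nop56*, both of the box C/D snoRNP, followed at 155 ± 1.79 and 139 ± 5.89 TPM, and their ranges did not overlap. At the low end stood *Rrp12*, an export factor for ribosome precursors, at 12.3 TPM and *Polr1b*, the second largest subunit of RNA polymerase I, at 10.3 ± 0.885 TPM. *Npm1* has processed pseudogenes of near-identical sequence, so its own count is uncertain.

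Across the 16 groups the 44 genes stood highest 24 h after the change of medium without dox. Their summed level was 4292 ± 105 CPM (SD, n = 3) at 0 h without dox and 2931 ± 56.9 CPM with dox. At 24 h it was 10323 ± 229 CPM without dox and 3986 ± 83.3 CPM with dox. With this scaling the dox libraries of 24 h lay below the undosed libraries of 0 h. As a percentage of the total count alone the ranges overlapped, with 0.456, 0.449 and 0.454 against 0.454, 0.442 and 0.436. At 48 h the sums were 4322 ± 113 CPM and 3391 ± 96.7 CPM, and in whole cultures at 120 h 5205 ± 64.2 CPM and 3431 ± 51.6 CPM. C2C12 iCdh23 had 3660.1 ± 121 CPM without dox and 2004 ± 79.1 CPM with dox, and C2C12 iMcam had 4079 ± 507 CPM and 2251 ± 251 CPM. The myoblast-enriched fraction had 4085 ± 557 CPM without and 3644 ± 62.4 CPM (n = 2) with dox, and the myotube-enriched fraction 3275 ± 52.3 CPM and 3640.2 ± 661 CPM. Of the 44 genes, 41 had their highest group mean at 24 h without dox and 29 their lowest in C2C12 iCdh23 with dox. The exceptions at the top were *Nop10* and *Bysl*, highest in the myotube-enriched fraction with dox through replicate 1 alone, and *Rrp12*, highest in whole cultures of 120 h without dox. The mean of the highest group was 16.5 times that of the lowest for *Npm1* and 2.01 times for *Rrp1b*, the widest and the narrowest span. Groups of 0 and 24 h carry no batch label and the later ones do, so ranks and spans that cross this line can hold a shift between batches.

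*Myc* and these genes had the same highest group, 24 h without dox, and by group means the same lowest, C2C12 iCdh23 with dox. In that lowest group *Myc* was at 8.47, 5.63 and 9.34 CPM, which overlapped the 24 h dox libraries. In 7 of 8 comparisons of dox with no dox *Myc* fell and the median of the 44 genes was below 0. Between the highest and the lowest group the order differed in part. Relative to 0 h without dox, the median over the 44 genes (log2 of CPM over the 0 h mean) was -0.51 in the 0 h dox group, where *Myc* was at 16.2, 15.6 and 16.5 CPM. In the 24 h dox group it was -0.10, with *Myc* at 9.67, 8.58 and 8.18 CPM. Every 24 h dox library thus had less *Myc* than every 0 h dox library while the ribosome biogenesis genes stood higher. The whole cultures of 120 h with dox had a median of 0.01 and *Myc* at 14.7, 17.1 and 13.1 CPM, and the 48 h dox group a median of -0.01 and *Myc* at 29.3, 28.7 and 27.6 CPM. Both medians were near that of the 0 h group without dox, whose *Myc* was at 28.9, 31 and 36.3 CPM. The groups of 48 and 120 h carry the batch label and that of 0 h does not, so time and batch cannot be told apart here. *Myc* was highest at 24 h without dox, at 153, 138 and 143 CPM, where the median was 1.34. Of its relatives, *Mycn* stayed under 1 CPM in every library. *Mycl* rose by 2.73 (SE 0.201, edgeR adjusted p = 2.52e-08) from 0 to 24 h and by 4.28 (SE 0.0756, edgeR adjusted p = 1.58e-14) from 24 to 48 h without dox, and with dox it was called higher at 0 h (1.37) and lower in 6 of the 7 other comparisons (between -5.73 and -1.07).

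**Figure D1:**
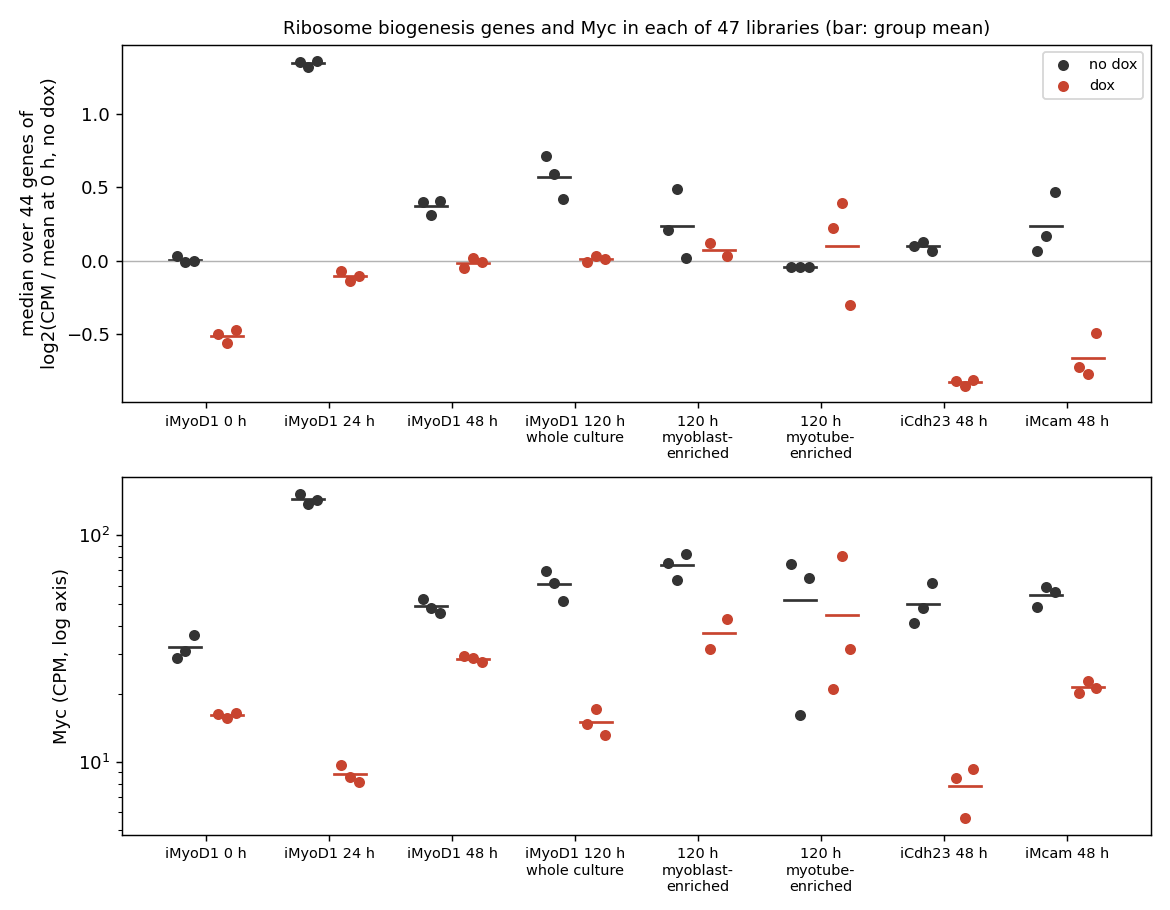
Ribosome biogenesis genes (top) and Myc (bottom) in each of the 47 libraries. The top axis is the median over 44 genes of log2 CPM relative to the mean at 0 h without dox, and the bottom axis is Myc in CPM on a log axis; points are libraries, black without and red with dox, and bars are group means. The 24 h group without dox stands highest in both panels, at a median of 1.34, and the 24 h dox group has a lower Myc but a higher median than the 0 h dox group.

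From 0 to 24 h without dox, all 44 ribosome biogenesis genes rose, against 37.3% of the 13632 genes tested. The edgeR test called 0 of them lower, at an unadjusted p under 0.05 the count was also 0, and DESeq2 called 0, while 37% of all genes fell. Their median log2 fold change was 1.39 against 0.01 over all genes, and 37 rose over 2-fold (all genes 9.49%). *Myc*, with all 24 h libraries above those of 0 h, rose by a log2 ratio of 2.21 (SE 0.0782, edgeR adjusted p = 1.38e-11). Over the same hours all 14 proliferation markers fell, with a median of -1.41 and a summed level of 3655 ± 16.5 CPM (SD, n = 3) at 0 h and 1388 ± 28.8 CPM at 24 h. *Mki67* was their top gene at 0 h and *Top2a* at 24 h, none stood at 0, and their part in the result was not tested.

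All 3 RNA polymerase I subunits rose. *Polr1b* (ENSMUSG00000027395, chromosome 2 from 129100995 to 129126594 of GRCm38) went from 19, 19.6 and 22.1 CPM to 57.4, 49.6 and 49.6 CPM, a log2 ratio of 1.40 (SE 0.0795, edgeR adjusted p = 1.63e-09). The scaffold proteins and chaperones had a median of 1.37, with *Ncl* (ENSMUSG00000026234, chromosome 1 from 86344719 to 86359400) the least changed and *Ddx21*, an RNA helicase of the nucleolus, the most at 1.74 (SE 0.0563, edgeR adjusted p = 5.92e-12). *Ncl* was at 746, 728 and 689 CPM and then at 1232, 1296 and 1325 CPM, a log2 ratio of 0.87 (SE 0.0604, edgeR adjusted p = 1.38e-08). *Npm1* (ENSMUSG00000057113, chromosome 11 from 33152287 to 33163206) rose from 1159.7, 1122 and 1084 to 2390.1, 2491 and 2719 CPM, a log2 ratio of 1.21 (SE 0.0658, edgeR adjusted p = 1.03e-09). All 24 h libraries of these 3 genes lay above those of 0 h.

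The snoRNP genes rose together. *Fbl* (ENSMUSG00000046865, chromosome 7 from 28169710 to 28179269) was at 92.6, 92.6 and 93.5 CPM at 0 h and 142, 159 and 163 CPM at 24 h, a log2 ratio of 0.77 (SE 0.0631, edgeR adjusted p = 7.35e-08). *Nop56* (ENSMUSG00000027405, chromosome 2 from 130274430 to 130279313), a core protein of the same particle, went from 130, 128 and 119 to 427, 416 and 441 CPM, a log2 ratio of 1.81 (SE 0.0592, edgeR adjusted p = 6.59e-12). In the box H/ACA class, *Dkc1* (ENSMUSG00000031403, chromosome X from 75095854 to 75109777), which encodes the pseudouridine synthase dyskerin, was at 68.7, 64 and 65.1 CPM and then at 152, 148 and 172 CPM, a log2 ratio of 1.29 (SE 0.0672, edgeR adjusted p = 6.58e-10). None of these 3 genes overlapped between the times. *Nop10*, a small partner of dyskerin, rose least in its class, by 0.57 (SE 0.0771, edgeR adjusted p = 1.21e-05).

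Among small subunit factors *Heatr1* (ENSMUSG00000050244, chromosome 13 from 12395027 to 12440289), a scaffold of the complex that processes the precursor RNA, rose from 51.3, 47.8 and 49.8 to 155, 129.7 and 124 CPM, a log2 ratio of 1.49 (SE 0.0786, edgeR adjusted p = 7.62e-10). *Bysl* (ENSMUSG00000023988, chromosome 17 from 47599331 to 47611492), a late small subunit factor, rose from 32.5, 34.5 and 31.7 to 79.3, 88.7 and 84.6 CPM, a log2 ratio of 1.39 (SE 0.0675, edgeR adjusted p = 3.17e-10). *Nop14*, of the same processing complex, had the highest value of the 44 genes, 2.35 (SE 0.0579, edgeR adjusted p = 5.42e-13), and *Rcl1*, a factor for precursor cleavage, the lowest, 0.42 (SE 0.061, edgeR adjusted p = 2.45e-05). *Noc4l*, another small subunit factor, also stood low, at 0.69 (SE 0.0677, edgeR adjusted p = 5.52e-07). The 24 h libraries of *Heatr1* and *Bysl* lay above all those of 0 h.

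The large subunit factors *Bop1* and *Pes1* encode partners in 1 complex with Wdr12 that processes the large subunit precursor. *Bop1* (ENSMUSG00000022557, chromosome 15 from 76452989 to 76477277) was at 108, 105 and 105 CPM at 0 h and 216, 207 and 207 CPM at 24 h, a log2 ratio of 1.02 (SE 0.0529, edgeR adjusted p = 6.39e-10). *Pes1* (ENSMUSG00000020430, chromosome 11 from 3963975 to 3980004) went from 113, 107 and 109 to 277, 273 and 281 CPM, a log2 ratio of 1.37 (SE 0.0534, edgeR adjusted p = 3.34e-11). *Wdr12* rose by 2.15 (SE 0.0709, edgeR adjusted p = 7.02e-12). *Gnl3* (ENSMUSG00000042354, chromosome 14 from 31012433 to 31019152), the gene of the nucleolar GTPase nucleostemin, rose from 50.7, 53.1 and 54.4 to 199.8, 191 and 197 CPM, a log2 ratio of 1.93 (SE 0.0566, edgeR adjusted p = 2.56e-12), and *Rrs1*, a factor for loading the small ribosomal RNA of the large subunit, by 2.14 (SE 0.061, edgeR adjusted p = 1.97e-12). No library of 0 h reached the 24 h values of these genes.

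Genes of the same process outside the 44 moved the same way. All 85 of 85 other ribosome assembly factors rose with a median of 0.98. Of 12 other RNA polymerase I subunits and ribosomal DNA transcription factors 11 rose (median 0.92), and of 79 cytosolic ribosomal proteins 77 rose (median 0.79).

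**Figure D2:**
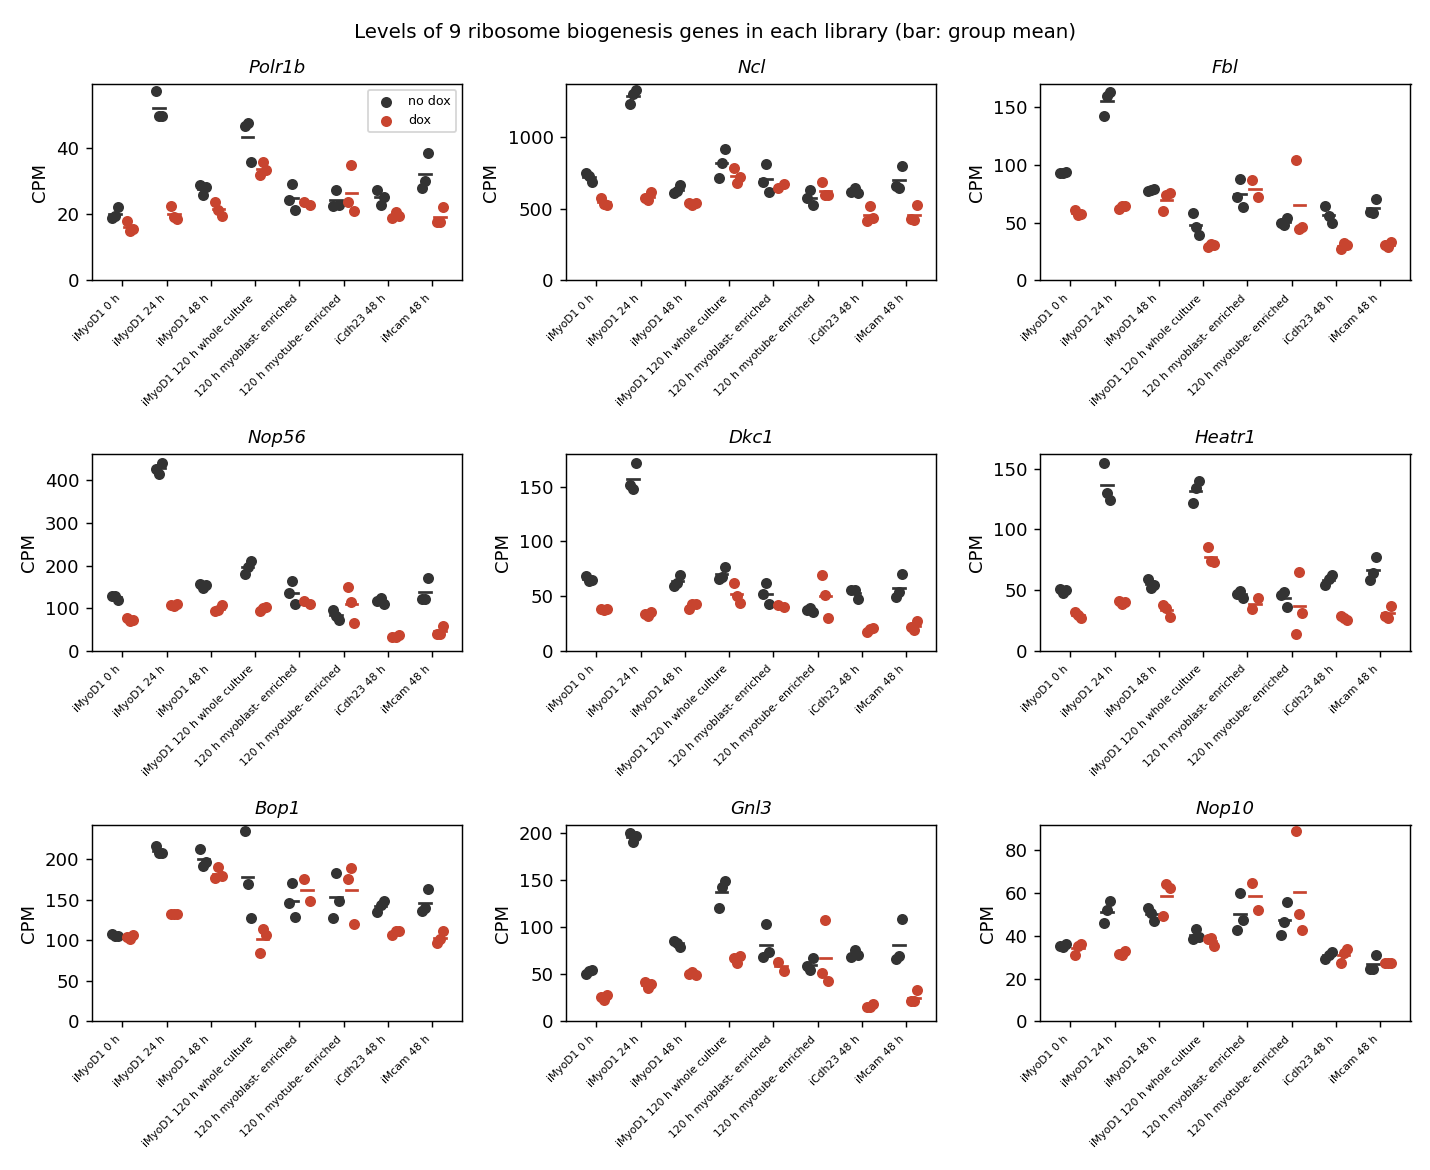
Levels in CPM of 9 ribosome biogenesis genes in each library, with 1 panel per gene, the 8 combinations of line, time and fraction on the horizontal axis and bars for group means (black without dox, red with dox). The 24 h group without dox stands apart for Nop56, Dkc1 and Gnl3, while Bop1 at 0 h overlaps between the dox groups.

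Dox lowered every ribosome biogenesis gene at 24 h. All 44 fell, against 31.7% of 14078 genes tested, and 35 of them over 2-fold, against 5.13%. With edgeR 0 rose, also 0 at an unadjusted p under 0.05 and 0 by DESeq2, where 31.1% of all genes rose. The median log2 fold change was -1.41 (all genes 0.00), and *Myc* fell, with a log2 ratio of -4.07 (SE 0.0734, edgeR adjusted p = 7.44e-12). The undosed libraries of 24 h serve both this comparison and the rise from 0 h. Scaling to the total count alone moved the median of all genes by 0.26 and that of the 44 genes to -1.14, and all 44 still fell.

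By role, the box H/ACA genes had the lowest median, -1.94, followed by the scaffold proteins (-1.54), the box C/D genes (-1.53), the large subunit factors (-1.42), the small subunit factors (-1.32) and RNA polymerase I (-0.97). *Polr1b* was at 22.5, 19.3 and 18.7 CPM with dox, a log2 ratio of -1.40 (SE 0.0812, edgeR adjusted p = 3.36e-08). *Polr1c*, a subunit that RNA polymerase I shares with RNA polymerase III, fell least of all 44, with -0.48 (SE 0.0546, edgeR adjusted p = 1.03e-05). *Ncl* was at 572, 561 and 617 CPM, a log2 ratio of -1.16 (SE 0.0611, edgeR adjusted p = 1.47e-08), and *Npm1* at 997, 977 and 1003 CPM, a log2 ratio of -1.38 (SE 0.0642, edgeR adjusted p = 5.68e-09). None of these 3 genes overlapped.

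Dyskerin's gene *Dkc1* was at 33.9, 31.7 and 35.9 CPM with dox, a log2 ratio of -2.24 (SE 0.0694, edgeR adjusted p = 3.01e-10), the second largest fall. *Fbl* was at 62, 64.5 and 64.1 CPM, a log2 ratio of -1.31 (SE 0.0634, edgeR adjusted p = 7.52e-09), and *Nop56* at 107, 106 and 111 CPM, a log2 ratio of -2.01 (SE 0.0533, edgeR adjusted p = 1.08e-10). *Nop10* again moved least among the snoRNP genes, -0.71 (SE 0.074, edgeR adjusted p = 4.67e-06). The 3 genes given per library did not overlap between dox and no dox.

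In the small subunit pathway *Heatr1* was at 41.4, 38.6 and 40 CPM, a log2 ratio of -1.79 (SE 0.0769, edgeR adjusted p = 3.23e-09), and *Bysl* at 48.4, 47.8 and 46.9 CPM, a log2 ratio of -0.85 (SE 0.0576, edgeR adjusted p = 1.25e-07). In the large subunit pathway *Gnl3* fell most of all, to 42.2, 35.7 and 39.4 CPM, a log2 ratio of -2.35 (SE 0.062, edgeR adjusted p = 1.08e-10), and *Rrs1* had -2.06 (SE 0.0615, edgeR adjusted p = 2.26e-10). *Pes1* was at 122, 118 and 121 CPM, a log2 ratio of -1.23 (SE 0.0491, edgeR adjusted p = 1.98e-09), while its partner *Bop1* at 133, 133 and 133 CPM fell less, with a log2 ratio of -0.69 (SE 0.049, edgeR adjusted p = 1.9e-07). No library overlapped between the dox groups in these 5 genes.

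Of the 85 other assembly factors, 84 fell and 1 rose, with a median of -0.87. Cytosolic ribosomal proteins fell in 78 of 79 cases, with a smaller median of -0.56, and 11 of 12 other RNA polymerase I and ribosomal DNA factors fell (median -0.58). Of 14 proliferation markers 2 rose and 9 fell, with a median of -0.28 and summed levels of 1388 ± 28.8 CPM (SD, n = 3) without and 1211 ± 12.7 CPM with dox, and their part in the result was not tested.

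**Figure D3:**
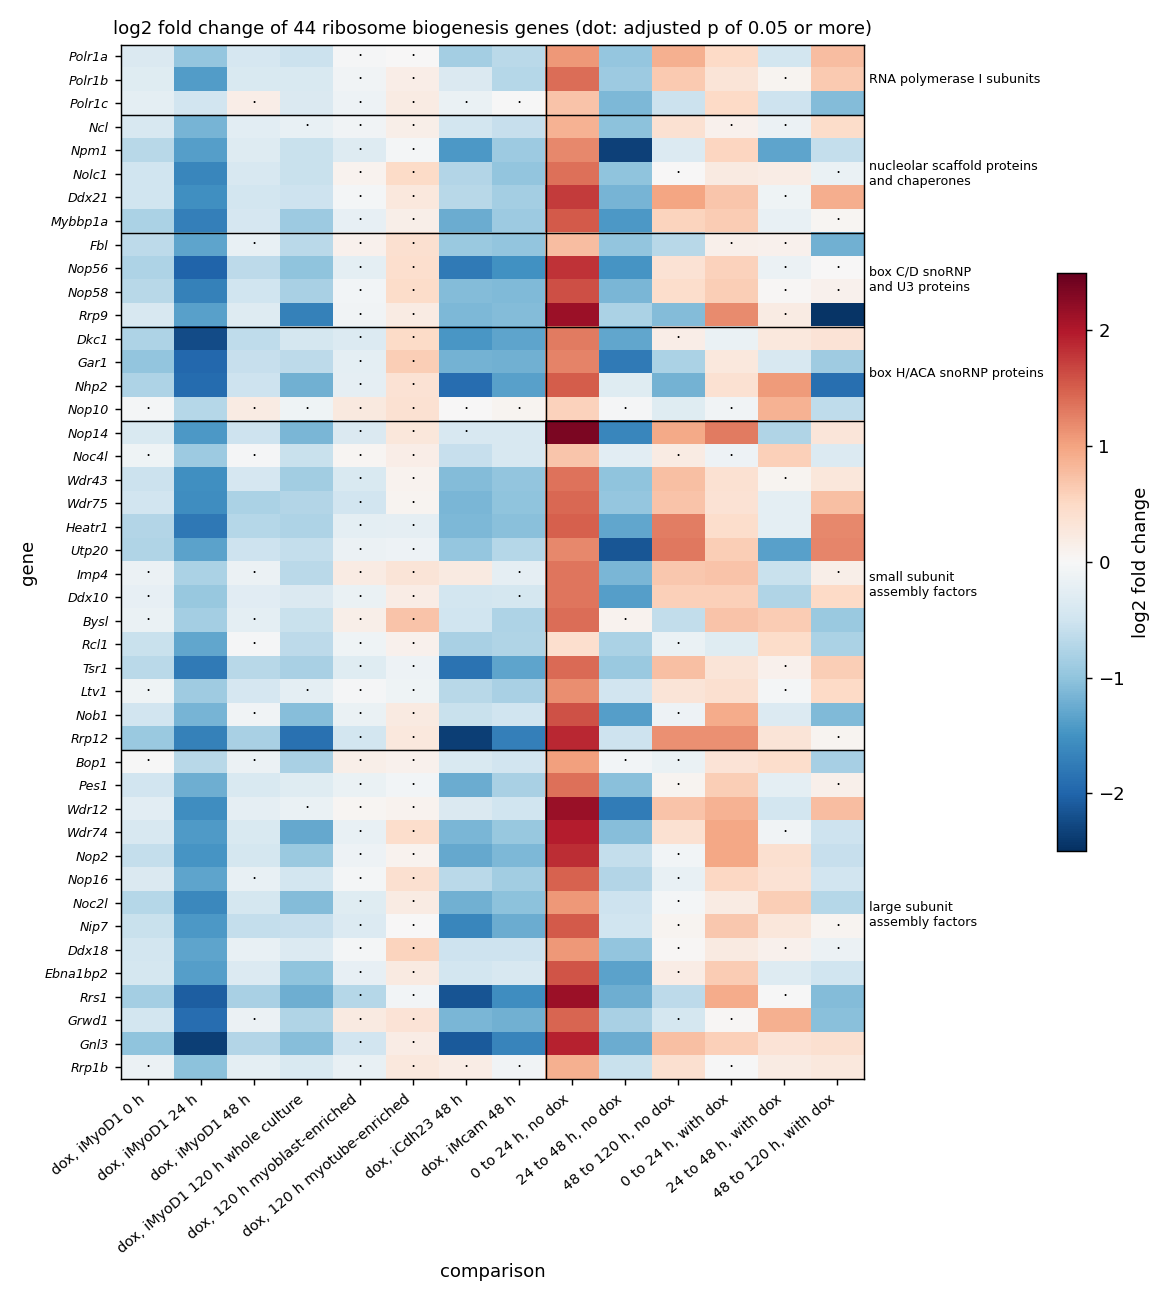
Log2 fold change of 44 ribosome biogenesis genes, ordered by role, in 14 comparisons (8 of dox against no dox, 6 of a later against an earlier time), on a color scale from blue (lower) to red (higher); a dot marks an edgeR adjusted p of 0.05 or more. The columns for dox at 24 h and for 0 to 24 h without dox are of 1 color throughout, while both columns for 48 to 120 h hold rises and falls.

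In growth medium dox already lowered most of these genes. At 0 h 36 of 44 fell, against 18.7% of 13550 genes tested, with a median log2 fold change of -0.48 (all genes 0.00). A single gene, *Gnl3*, fell over 2-fold, against 1.36% of all genes. The edgeR test called 0 higher, 0 at an unadjusted p under 0.05 and 0 by DESeq2, while 19.1% of all genes rose. *Myc* fell, with a log2 ratio of -0.99 (SE 0.0891, edgeR adjusted p = 1.61e-06). With all 47 libraries in 1 fit, 23 of the 44 genes fell, and *Myc*, *Polr1b*, *Heatr1* and *Rrp12* were no longer called.

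*Gnl3* was at 26.2, 23.1 and 28.4 CPM with dox, a log2 ratio of -1.01 (SE 0.0776, edgeR adjusted p = 3.72e-07). *Gar1*, a partner of dyskerin, and the export factor *Rrp12* came next, at -0.98 (SE 0.0973, edgeR adjusted p = 3.74e-06) and -0.92 (SE 0.0855, edgeR adjusted p = 2.02e-06). *Dkc1* was at 38.1, 37.7 and 38.4 CPM, a log2 ratio of -0.78 (SE 0.0596, edgeR adjusted p = 3.67e-07). *Nop56* was at 77, 69.4 and 73.2 CPM and *Fbl* at 60.9, 56.6 and 57.7 CPM, with log2 ratios of -0.77 (SE 0.0612) and -0.66 (SE 0.0566). The groups of these 4 genes given per library did not overlap.

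*Npm1* was at 662, 693 and 717 CPM, a log2 ratio of -0.69 (SE 0.0531, edgeR adjusted p = 3.94e-07), and *Ncl* at 576, 532 and 522 CPM, a log2 ratio of -0.40 (SE 0.0554, edgeR adjusted p = 7.96e-05). *Heatr1* was at 32.1, 29.4 and 27.1 CPM, a log2 ratio of -0.73 (SE 0.0718, edgeR adjusted p = 3.26e-06), and *Pes1* at 76, 75.8 and 83.5 CPM, a log2 ratio of -0.47 (SE 0.0592, edgeR adjusted p = 3.11e-05). *Polr1b* was at 17.9, 15.1 and 15.5 CPM, a log2 ratio of -0.31 (SE 0.0943, edgeR adjusted p = 0.0177). The groups did not overlap in these 5 genes, but the call of *Polr1b* was lost without dox replicate 2 or without replicate 3 of the undosed group, with values between -0.40 and -0.25.

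The 8 genes that did not pass the test at 0 h were *Ddx10*, *Bysl*, *Imp4*, *Rrp1b*, *Ltv1*, *Noc4l*, *Nop10* and *Bop1*. *Bop1* overlapped in part, at 104, 102 and 107 CPM with dox and 108, 105 and 105 CPM without, a log2 ratio of -0.01 (SE 0.0533, edgeR adjusted p = 0.875). *Bysl* was at 33.8, 24.7 and 28.3 CPM with dox, a log2 ratio of -0.17 (SE 0.0974, edgeR adjusted p = 0.184), and it passed the test only without dox replicate 1, with values between -0.30 and -0.07. *Nop10* and *Noc4l* had -0.04 and -0.10. All 79 cytosolic ribosomal proteins fell at 0 h (median -0.35), as did 56 of 85 other assembly factors (median -0.27, 1 rose) and 3 of 12 other RNA polymerase I and ribosomal DNA factors (median -0.18). Proliferation markers summed to 3655 ± 16.5 CPM (SD, n = 3) without and 3121 ± 38.5 CPM with dox, 10 of 14 fell (median -0.27), and their part in the result was not tested.

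The dox effect itself differed between 24 and 0 h. In a test of that difference all 44 ribosome biogenesis genes were lower at 24 h, against 20.7% of 14449 genes tested, and 20 of them over 2-fold, against 2.64%. By edgeR 0 were higher, also 0 at an unadjusted p under 0.05, and 13.3% of all genes were. The median difference was -0.95 (all genes -0.05), and that of *Myc* was -3.13 (SE 0.118, edgeR adjusted p = 1.16e-11). *Dkc1* differed most, with -1.51 (SE 0.0903, edgeR adjusted p = 2.87e-09), with *Grwd1*, a chaperone of a large subunit protein, at -1.49 (SE 0.0893, edgeR adjusted p = 2.87e-09) and *Gnl3* at -1.38 (SE 0.0995, edgeR adjusted p = 2.16e-08).

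At the other end *Polr1c* had a difference of -0.27 (SE 0.0886, edgeR adjusted p = 0.0244), and its call was lost without replicate 2 or 3 of the 0 h or 24 h dox groups, or replicate 3 of either undosed group, with values between -0.35 and -0.23. *Utp20*, a scaffold of small subunit processing, and *Polr1a*, the largest subunit of RNA polymerase I, had -0.63 (SE 0.112, edgeR adjusted p = 0.000323) and -0.65 (SE 0.0924, edgeR adjusted p = 3.78e-05). *Bop1*, with no call at 0 h, had -0.72 (SE 0.0655, edgeR adjusted p = 3.23e-07). With all libraries in 1 fit *Fbl*, *Bysl*, *Heatr1*, *Bop1*, *Utp20* and *Polr1c* were not called. Of 85 other assembly factors 78 were lower in this test (median -0.64), and of 79 ribosomal proteins 39 (median -0.28).

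With dox, the ribosome biogenesis genes rose from 0 to 24 h while *Myc* fell. Of 44 genes 36 rose and 2 fell, against 34% and 34% of 13943 genes tested, and 3 rose over 2-fold (all genes 5.19%). Their median was 0.51 (all genes 0.01), below the 1.39 of the same hours without dox. *Myc* had a log2 ratio of -0.87 (SE 0.0928, edgeR adjusted p = 2.2e-06), with every library of 24 h below those of 0 h. Without dox, *Myc* had risen over the same hours. All 14 proliferation markers fell (median -1.36), and their part in the result was not tested.

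The largest rises were those of *Nop14* at 1.30 (SE 0.057, edgeR adjusted p = 2.94e-10), *Rrp9*, a protein of the U3 snoRNP, at 1.18 (SE 0.0773, edgeR adjusted p = 1.75e-08), and *Rrp12* at 1.14 (SE 0.0847, edgeR adjusted p = 6.13e-08). *Bysl* rose by 0.72 (SE 0.0895, edgeR adjusted p = 9.48e-06), *Pes1* by 0.62 (SE 0.0563, edgeR adjusted p = 4.41e-07) and *Gnl3* by 0.60 (SE 0.0819, edgeR adjusted p = 2.31e-05). *Nop56* had 0.57 (SE 0.0556), *Npm1* 0.53 (SE 0.0538), *Heatr1* 0.44 (SE 0.0676), *Bop1* 0.35 (SE 0.0505) and *Polr1b* 0.32 (SE 0.0945). In all 8 of these genes that were given per library, the 24 h dox values lay above the 0 h dox values. *Ncl* at 0.11 (SE 0.0577, edgeR adjusted p = 0.117) and *Fbl* at 0.12 (SE 0.0555, edgeR adjusted p = 0.0627) did not pass the test, though both did without 0 h dox replicate 1 (values between 0.08 and 0.15 and between 0.10 and 0.16). When all libraries were in 1 fit the calls of *Polr1b*, *Heatr1* and *Bop1* were lost.

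The 2 genes that fell were *Rcl1*, at -0.31 (SE 0.0789, edgeR adjusted p = 0.00344), and *Dkc1*, at -0.16 (SE 0.0593, edgeR adjusted p = 0.0255). *Dkc1* was also not called by DESeq2, nor without 0 h dox replicate 3 or 24 h dox replicate 1 or 2, with values between -0.20 and -0.13. Between 1 and 3 genes fell as each library was left out in turn, 0 fell with all libraries in 1 fit, and 1 fell by DESeq2. *Noc4l* had -0.12 (SE 0.0739, edgeR adjusted p = 0.159) and was called lower only without 0 h dox replicate 2. Among 85 other assembly factors 77 rose (median 0.45), as did 73 of 79 ribosomal proteins (median 0.64) and 10 of 12 other RNA polymerase I and ribosomal DNA factors (median 0.39), with 0 lower in these 3 lists by edgeR.

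Between 24 and 48 h without dox the rise was largely undone. Of 44 genes 41 fell, against 38.4% of 14017 genes tested, 22 of them over 2-fold (all genes 11.1%), and the median was -1.01 (all genes -0.02). By edgeR 0 rose, 0 at an unadjusted p under 0.05 and 0 by DESeq2, while 38.4% of all genes rose. *Myc* fell to 52.4, 48 and 45.3 CPM, a log2 ratio of -1.57 (SE 0.0673, edgeR adjusted p = 1.33e-10). The 48 h libraries are those that carry the batch label, so time and batch cannot be told apart here. All 18 myotube markers rose over the same interval, with summed levels of 10.5 ± 0.721 CPM (SD, n = 3) at 24 h and 16622 ± 806 CPM at 48 h. *Acta1* was their top gene at both times, 3 of them (*Myh4*, *Myh8* and *Actn2*) stood at 0 at 24 h and none at 48 h. Of 14 proliferation markers 12 rose and 0 fell, summed 1388 ± 28.8 CPM and 1915 ± 43.5 CPM. The part of both lists in the result was not tested.

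*Npm1* fell most, to 523, 481 and 503 CPM, a log2 ratio of -2.33 (SE 0.0715, edgeR adjusted p = 3.84e-12). *Utp20* and *Gar1* followed at -2.13 (SE 0.0835, edgeR adjusted p = 5.25e-11) and -1.76 (SE 0.0822, edgeR adjusted p = 3.25e-10). *Ncl* was at 607, 623 and 668 CPM, a log2 ratio of -1.02 (SE 0.0649, edgeR adjusted p = 8.6e-09), and *Polr1b* at 28.9, 25.8 and 28.4 CPM, a log2 ratio of -0.91 (SE 0.0771, edgeR adjusted p = 1.63e-07). The snoRNP genes *Nop56* at 158, 148 and 155 CPM and *Fbl* at 77.1, 78 and 78.7 CPM had log2 ratios of -1.47 (SE 0.0565) and -0.99 (SE 0.0652), and *Dkc1* at 59.6, 61.7 and 69.3 CPM had -1.30 (SE 0.0763). In all of these genes the times did not overlap.

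*Heatr1* was at 59.3, 52.2 and 54 CPM at 48 h, a log2 ratio of -1.30 (SE 0.0835, edgeR adjusted p = 9.33e-09). *Gnl3* was at 85.5, 83.8 and 79.1 CPM, a log2 ratio of -1.24 (SE 0.0572, edgeR adjusted p = 2.93e-10), and *Pes1* at 134, 134 and 132 CPM, a log2 ratio of -1.05 (SE 0.053, edgeR adjusted p = 7.65e-10). These 3 did not overlap between the times. The 3 genes without a call were *Bysl*, *Nop10* and *Bop1*. *Bop1* stayed at 212, 191 and 196 CPM, within reach of its 24 h values, a log2 ratio of -0.07 (SE 0.0582, edgeR adjusted p = 0.313), and *Bysl* was at 99.8, 82.3 and 85.4 CPM, a log2 ratio of 0.09 (SE 0.0755, edgeR adjusted p = 0.315). Of the other 85 assembly factors 77 fell and 0 rose by edgeR (median -0.69), and of 79 ribosomal proteins 65 fell and 2 rose (median -0.58).

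From 24 to 48 h with dox the genes changed in both directions. The difference from the same interval without dox was not tested. *Myc* rose, with a log2 ratio of 1.67 (SE 0.0868, edgeR adjusted p = 3.14e-08), while the ribosome biogenesis genes divided. Of 44 genes 16 rose and 15 fell, against 36.9% and 35.5% of 14953 genes tested, with 1 up over 2-fold (all genes 17%) and 2 down over 2-fold (all genes 11.8%). These shares are below or near those of all genes. The median was 0.04, and its sign turned with upper-quartile scaling (-0.02) and with the total count alone (-0.13, where 10 rose and 21 fell). In 1 fit of all libraries, 10 rose and 9 fell. All 18 myotube markers rose, summed 15 ± 1.39 CPM (SD, n = 3) at 24 h and 6522 ± 132 CPM at 48 h, 13 of 14 proliferation markers fell, summed 1211 ± 12.7 CPM and 781 ± 20.3 CPM, and their part was not tested. Time and batch cannot be told apart in this interval either.

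The rises were largest for *Nhp2*, a box H/ACA protein, at 1.06 (SE 0.105, edgeR adjusted p = 5.54e-06), *Grwd1* at 0.89 (SE 0.0951, edgeR adjusted p = 9.41e-06) and *Nop10* at 0.86 (SE 0.0946, edgeR adjusted p = 1.27e-05). *Bysl* went to 66.9, 74.3 and 85.8 CPM, a log2 ratio of 0.64 (SE 0.0887, edgeR adjusted p = 7.14e-05), and *Bop1* to 177, 189.8 and 179 CPM, a log2 ratio of 0.43 (SE 0.057, edgeR adjusted p = 5.03e-05). *Dkc1* was at 38.4, 43.3 and 42.6 CPM and *Gnl3* at 49.9, 52.4 and 49.3 CPM, with 0.27 (SE 0.0722, edgeR adjusted p = 0.00655) and 0.35 (SE 0.0696, edgeR adjusted p = 0.000993). The 48 h libraries of these 4 genes lay above those of 24 h, though the calls of *Dkc1* and *Gnl3* were lost with all libraries in 1 fit.

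Of the genes that fell, *Utp20* had -1.35 (SE 0.0768, edgeR adjusted p = 6.76e-08) and *Npm1*, at 379.7, 424 and 417 CPM, had -1.31 (SE 0.0699, edgeR adjusted p = 3.94e-08), and its libraries of the 2 times stayed apart. *Nop14* and *Ddx10*, a helicase of the small subunit pathway, followed at -0.76 (SE 0.0625, edgeR adjusted p = 1.29e-06) and -0.76 (SE 0.0603, edgeR adjusted p = 9.34e-07). *Pes1* had -0.24 (SE 0.0561, edgeR adjusted p = 0.00263), a call lost with all libraries in 1 fit. *Heatr1* had -0.25 (SE 0.094, edgeR adjusted p = 0.0309), a call lost without any 1 of the 3 dox libraries of 24 h, or without 48 h dox replicate 2 or 3, with values between -0.35 and -0.15.

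*Ncl*, *Nop56*, *Fbl* and *Polr1b* did not pass the test, with -0.15, -0.15, 0.11 and 0.07. *Ncl* and *Fbl* passed it without 48 h dox replicate 1 (values between -0.18 and -0.12 and between 0.05 and 0.18) and *Nop56* without 48 h dox replicate 3 (values between -0.21 and -0.12), and DESeq2 called *Ncl* and *Nop56* lower. By role, 3 of 4 box H/ACA genes rose and 0 of 4 box C/D genes passed the test with edgeR. Outside the 44 genes, of 85 assembly factors 15 rose and 38 fell (median -0.13), and of 79 ribosomal proteins 23 rose and 17 fell (median 0.04).

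At 48 h dox lowered most of the ribosome biogenesis genes. Of 44 genes 33 fell, against 28.7% of 13871 genes tested, with a median of -0.39 (all genes 0.01), and 0 fell over 2-fold (all genes 8.46%). By edgeR 0 rose, 0 at an unadjusted p under 0.05 and 0 by DESeq2, against 27.9% of all genes. Without 48 h dox replicate 1, however, 2 rose (*Polr1c* and *Nop10*, with values between 0.09 and 0.25 and between 0.15 and 0.33), and the same 2 rose when libraries were scaled to the total count alone. *Myc* fell from 52.4, 48 and 45.3 to 29.3, 28.7 and 27.6 CPM, a log2 ratio of -0.78 (SE 0.0763, edgeR adjusted p = 9.51e-06), a call lost with all libraries in 1 fit. The difference between the dox effects at 24 and 48 h was not tested.

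*Rrs1*, *Rrp12* and *Wdr75*, a factor that ties RNA polymerase I transcription to processing, fell most, with -0.82 (SE 0.0761, edgeR adjusted p = 6.77e-06), -0.81 (SE 0.0777, edgeR adjusted p = 8.28e-06) and -0.80 (SE 0.0649, edgeR adjusted p = 2.43e-06). *Gnl3* was at 85.5, 83.8 and 79.1 CPM without and 49.9, 52.4 and 49.3 CPM with dox, a log2 ratio of -0.73 (SE 0.0631, edgeR adjusted p = 3.98e-06). *Heatr1* had -0.71 (SE 0.102, edgeR adjusted p = 0.00016), *Nop56* -0.65 (SE 0.0717, edgeR adjusted p = 2.41e-05) and *Dkc1* -0.64 (SE 0.0826, edgeR adjusted p = 7.95e-05). *Npm1* had -0.32 (SE 0.0678), *Polr1b* -0.38 (SE 0.0919), *Pes1* -0.38 (SE 0.0562) and *Ncl* -0.26 (SE 0.067). With dox, *Gnl3*, *Heatr1*, *Nop56*, *Dkc1*, *Npm1*, *Polr1b*, *Pes1* and *Ncl* had no library that reached the undosed range. The calls of *Polr1b* and *Ncl* were lost with all libraries in 1 fit.

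No call was made for *Fbl* (-0.18, SE 0.0859, edgeR adjusted p = 0.0966), *Bysl* (-0.25, SE 0.103, edgeR adjusted p = 0.0559) or *Bop1* (-0.15, SE 0.062, edgeR adjusted p = 0.0594), though *Fbl* and *Bysl* passed the test without 48 h dox replicate 3 (values between -0.24 and -0.08 and between -0.35 and -0.17). *Noc4l*, *Polr1c* and *Nop10* had the highest values, -0.02, 0.17 and 0.21. The ribosomal proteins did not follow: of 79, 8 rose and 0 fell by edgeR (median 0.07). Of 85 other assembly factors 4 rose and 42 fell (median -0.20). Both marker lists moved at 48 h. All 14 proliferation markers fell (median -1.16, summed 1915 ± 43.5 CPM without and 781 ± 20.3 CPM with dox, SD, n = 3), as did all 18 myotube markers (median -1.25, summed 16622 ± 806 CPM and 6522 ± 132 CPM), and their part in the result was not tested.

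From 48 to 120 h, now in whole cultures of 1 batch label, the genes moved in both directions. Without dox 21 rose and 9 fell of 44, against 33% and 34.1% of 13786 genes tested, 3 of them up over 2-fold (all genes 11.7%) and 2 down over 2-fold (all genes 18.1%). The median was 0.20 (all genes -0.03), but 0.08 with upper-quartile scaling and 0.06 over the 27 genes that share no exon base with a gene on the opposite strand. *Myc* was at 69.7, 61.6 and 51.5 CPM at 120 h, a log2 ratio of 0.34 (SE 0.119, edgeR adjusted p = 0.0282), and its call was lost without 48 h replicate 2 or 3 or 120 h replicate 1 or 2, with values between 0.25 and 0.45. With all libraries in 1 fit it was lost too.

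*Utp20* and *Heatr1*, both long scaffolds of small subunit processing, rose most. *Heatr1* was at 122, 134 and 140.2 CPM at 120 h, a log2 ratio of 1.28 (SE 0.0954, edgeR adjusted p = 5.09e-06), and *Utp20* had 1.32 (SE 0.101, edgeR adjusted p = 5.88e-06). *Rrp12* rose by 1.14 (SE 0.142, edgeR adjusted p = 0.000106). *Gnl3* was at 120.4, 143 and 149 CPM and *Polr1b* at 46.7, 47.7 and 35.8 CPM, with log2 ratios of 0.75 (SE 0.102, edgeR adjusted p = 0.000174) and 0.66 (SE 0.125, edgeR adjusted p = 0.00122). *Nop56* at 181, 196 and 211 CPM had 0.37 (SE 0.0872), a call lost with all libraries in 1 fit. In these 4 genes given per library, all 120 h values lay above those of 48 h. *Ncl* at 716, 816 and 918 CPM had 0.39 (SE 0.11, edgeR adjusted p = 0.0116), lost without 48 h replicate 1 (values between 0.29 and 0.48).

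The 9 genes that fell were *Nhp2*, *Rrp9*, *Gar1*, *Fbl*, *Rrs1*, *Bysl*, *Polr1c*, *Npm1* and *Nop10*. *Nhp2* had -1.18 (SE 0.149, edgeR adjusted p = 0.000115), *Rrp9* -1.09 (SE 0.27, edgeR adjusted p = 0.0059) and *Gar1* -0.79 (SE 0.13, edgeR adjusted p = 0.000556). *Fbl* was at 57.9, 46.3 and 39 CPM at 120 h, a log2 ratio of -0.69 (SE 0.131, edgeR adjusted p = 0.00131), and *Npm1* at 353, 385 and 430 CPM, a log2 ratio of -0.35 (SE 0.0972, edgeR adjusted p = 0.0109), both with every library below those of 48 h. *Bysl* at 65.9, 59.6 and 47.2 CPM had -0.61 (SE 0.13, edgeR adjusted p = 0.00249), *Polr1c* -0.53 (SE 0.109) and *Rrs1* -0.66 (SE 0.101). *Nop10* had -0.30 (SE 0.0955, edgeR adjusted p = 0.02), lost without 48 h replicate 1 or 2 (values between -0.35 and -0.26). *Dkc1*, *Pes1* and *Bop1* did not pass the test (0.16, 0.06 and -0.16), though *Bop1* did without 120 h replicate 1.

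With dox the same interval gave 16 rises and 19 falls, against 34.9% and 38.6% of 14167 genes tested, with 2 up over 2-fold (all genes 15.1%) and 7 down over 2-fold (all genes 21.3%). These shares were near those of all genes, or below them over 2-fold. The median was 0.03 (all genes -0.04), 0.00 with upper-quartile scaling and -0.34 over the same 27 genes. Its sign also turned without 48 h dox replicate 1 (-0.02) or without 120 h dox replicate 2 (-0.04). *Myc* fell, with a log2 ratio of -0.92 (SE 0.121, edgeR adjusted p = 1.16e-05) and no overlap between the times. *Utp20* and *Heatr1* again rose most, by 1.23 (SE 0.0969, edgeR adjusted p = 9e-08) and 1.20 (SE 0.119, edgeR adjusted p = 8.43e-07), followed by *Ddx21* at 0.91 (SE 0.0875, edgeR adjusted p = 5.96e-07). *Rrp9*, *Nhp2* and *Fbl* fell most, with -2.45 (SE 0.146, edgeR adjusted p = 8.56e-09), -1.88 (SE 0.124, edgeR adjusted p = 1.91e-08) and -1.20 (SE 0.105, edgeR adjusted p = 2.42e-07).

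*Fbl* was at 28.5, 31.3 and 30.3 CPM in whole cultures of 120 h with dox and *Heatr1* at 85.6, 74.1 and 72.9 CPM. *Npm1* was at 287, 259 and 259 CPM, *Bop1* at 84.9, 114 and 107 CPM and *Bysl* at 35.1, 41 and 43.3 CPM, with log2 ratios of -0.59 (SE 0.0879), -0.83 (SE 0.108) and -0.92 (SE 0.114) and every library below those of 48 h. *Gnl3* at 67.6, 62.1 and 69.5 CPM, *Polr1b* at 32, 35.8 and 33.4 CPM and *Ncl* at 784, 680.1 and 718 CPM rose by 0.40 (SE 0.0901), 0.66 (SE 0.112) and 0.45 (SE 0.0882), with every library above. *Dkc1* at 62.4, 50.1 and 44.1 CPM had 0.34 (SE 0.121, edgeR adjusted p = 0.0205), lost without 48 h dox replicate 1 or 2 or 120 h dox replicate 1 (values between 0.20 and 0.45). *Nop56* and *Pes1* had 0.01 and 0.13 and no call. When all libraries were in 1 fit the calls of *Gnl3* and *Dkc1* were lost.

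Transcript length, a property the choice of genes did not use, went with the direction of change in this interval. Across the 44 genes the Spearman correlation of length with log2 fold change was 0.74 without dox and 0.74 with dox, a description over genes that share the same libraries. Over all genes it was 0.40 (n = 13757) and 0.44 (n = 14135). Of the 22 genes above the median length of 2687 bases, 17 rose and 1 fell without dox (median 0.67), and of the 22 below it 4 rose and 8 fell (median -0.16). With dox the longer 22 gave 13 rises and 2 falls (median 0.29) and the shorter 22 gave 3 rises and 17 falls (median -0.61). The relation was not particular to this interval. Between fractions without dox the correlation was 0.50 (all genes 0.14), and for the difference of the dox effects at 120 and 48 h 0.44 (all genes 0.15), where 6 longer and 13 shorter genes were lower. In the other 16 comparisons it lay between -0.32 and 0.21. The whole cultures of 120 h are also the libraries with the fewest genes with a count, and the part of length or library in the result was not tested. Length was looked at after the values were seen.

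**Figure D4:**
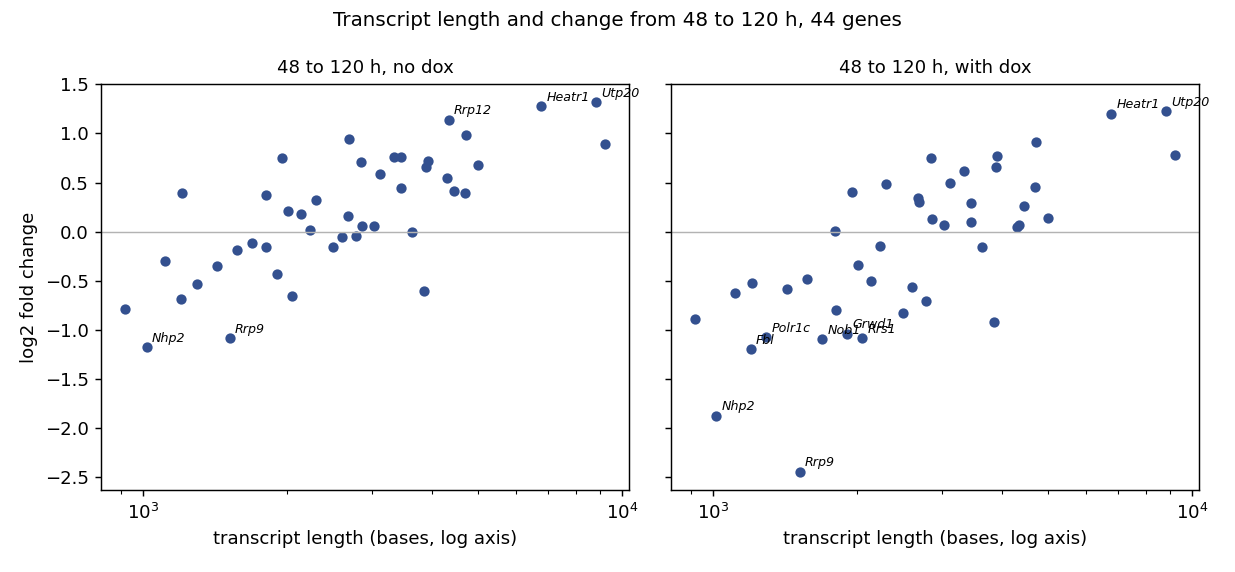
Log2 fold change from 48 to 120 h against transcript length in bases (log axis) for the 44 ribosome biogenesis genes, without dox (left) and with dox (right); each point is a gene, and genes with a log2 fold change beyond 1 in either direction are named. Heatr1 and Utp20, among the longest, stand at the top, and Nhp2 and Rrp9, among the shorter, at the bottom.

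The other lists differed from 48 to 120 h as well. Among 85 other assembly factors 39 rose and 14 fell without dox (median 0.21) and 35 rose and 30 fell with dox (median 0.12). Cytosolic ribosomal proteins fell in 68 and 78 of 79 cases (medians -0.85 and -1.36). All 14 proliferation markers fell without dox (median -2.25), and 4 rose and 9 fell with dox (median -0.74). Of 18 myotube markers 13 rose and 4 fell without dox, summed 16622 ± 806 CPM (SD, n = 3) at 48 h and 25431 ± 2309 CPM at 120 h, and 16 rose and 2 fell with dox, summed 6522 ± 132 CPM and 18509 ± 1217 CPM. Their part in the changes of the ribosome biogenesis genes was not tested.

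In whole cultures of 120 h dox lowered the ribosome biogenesis genes again. Of 44 genes 40 fell, against 23.7% of 13628 genes tested, 10 of them over 2-fold (all genes 8.8%), with a median of -0.67 (all genes 0.00). By edgeR 0 rose, 0 at an unadjusted p under 0.05 and 0 by DESeq2, while 21.4% of all genes rose. *Myc* fell from 69.7, 61.6 and 51.5 to 14.7, 17.1 and 13.1 CPM, a log2 ratio of -2.04 (SE 0.152, edgeR adjusted p = 1.01e-05). Unlike at 48 h, 9 of 14 proliferation markers rose and 2 fell, with summed levels of 457 ± 22.5 CPM (SD, n = 3) without and 657 ± 35.6 CPM with dox, and of 18 myotube markers 2 rose and 11 fell. Their part in the result was not tested.

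*Rrp12*, *Rrp9* and *Wdr74*, a large subunit factor, fell most, with -1.87 (SE 0.192, edgeR adjusted p = 6.77e-05), -1.69 (SE 0.316, edgeR adjusted p = 0.00223) and -1.28 (SE 0.135, edgeR adjusted p = 8.08e-05). *Gnl3* had -1.06 (SE 0.103, edgeR adjusted p = 5.07e-05), *Nop56* -1.0 (SE 0.0879, edgeR adjusted p = 2.77e-05) and *Heatr1* -0.78 (SE 0.0989, edgeR adjusted p = 0.000241). *Bop1*, with no call at 0 or 48 h, had -0.81 (SE 0.202, edgeR adjusted p = 0.0095). *Fbl* had -0.68 (SE 0.147) and *Npm1* -0.55 (SE 0.0959). In these 6 genes every dox library of 120 h lay below every undosed one.

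Other calls were lost when single libraries were left out. *Polr1b* had -0.38 (SE 0.132, edgeR adjusted p = 0.0426), lost without undosed replicate 1 or 2 or any 1 dox replicate (values between -0.50 and -0.31). *Dkc1* had -0.44 (SE 0.136, edgeR adjusted p = 0.0262), lost without undosed replicate 2 or dox replicate 2 or 3 (values between -0.58 and -0.33). *Bysl* had -0.55 (SE 0.142, edgeR adjusted p = 0.0118), lost without undosed replicate 2 (values between -0.68 and -0.44), and *Pes1* had -0.31 (SE 0.0784, edgeR adjusted p = 0.0112), lost without dox replicate 1 (values between -0.34 and -0.27). The 4 genes with no call were *Ltv1*, *Ncl*, *Wdr12* and *Nop10*, of which *Ncl* had -0.18 (SE 0.107, edgeR adjusted p = 0.2) and passed the test without undosed replicate 1 (values between -0.27 and -0.09). Scaled to the total count alone, which moved the median of all genes by 0.20, *Polr1b*, *Dkc1*, *Bysl* and *Pes1* had no call, nor had *Bysl* with all libraries in 1 fit. Of the 27 genes with no exon base shared with a gene on the opposite strand 24 fell, and of the 17 others 16. Of the other 85 assembly factors 1 rose and 55 fell (median -0.46), and of 79 ribosomal proteins 64 fell and 0 rose by edgeR (median -0.55).

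The dox effects at 120 and 48 h differed for part of the genes. In the test of the difference 19 of 44 were lower at 120 h, against 17.2% of 14734 genes tested, 2 of them over 2-fold (all genes 5.88%). By edgeR 0 were higher, 0 at an unadjusted p under 0.05, and 16.8% of all genes were. The median was -0.32 (all genes -0.01), with 11 lower when all libraries were in 1 fit, and *Myc* had -1.26 (SE 0.168, edgeR adjusted p = 7.25e-05). *Rrp9* had -1.36 (SE 0.347, edgeR adjusted p = 0.0083), *Rrp12* -1.06 (SE 0.223, edgeR adjusted p = 0.00255) and *Nob1*, the nuclease that finishes the small subunit RNA, -0.98 (SE 0.198, edgeR adjusted p = 0.00193). *Dkc1* was highest with 0.20 (SE 0.169, edgeR adjusted p = 0.399). *Fbl* (-0.50, SE 0.176, edgeR adjusted p = 0.0409), *Nop56* (-0.35, SE 0.119, edgeR adjusted p = 0.0356) and *Bop1* (-0.66, SE 0.233, edgeR adjusted p = 0.041) were called, but each lost its call as single libraries were left out. For *Nop56* these were all 3 undosed and dox replicate 3 of 48 h, and at 120 h undosed replicates 2 and 3 and dox replicate 1 (values between -0.41 and -0.29). For *Fbl* they were the undosed and dox libraries of 48 h except dox replicate 1, and at 120 h replicates 1 and 2 without and 1 and 3 with dox (values between -0.63 and -0.35). *Bop1* lost it without any 1 library of 48 h or the same 4 of 120 h (values between -0.85 and -0.42).

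In the fractions of 120 h no dox effect on the ribosome biogenesis genes passed the edgeR test of unpaired groups. In the myoblast-enriched fraction edgeR called 0 of 44 higher and 0 lower, against 1.82% and 2.52% of 14249 genes tested. At an unadjusted p under 0.05 there were 0 higher and 3 lower, and DESeq2 called 0 higher and 1 lower (*Rrs1*). For these 2 settings the shares over all genes are not given. The median was -0.15 (all genes -0.01). *Myc* was at 75.8, 63.5 and 82.8 CPM without and 31.6 and 42.8 CPM with dox, a log2 ratio of -0.98 (SE 0.184, edgeR adjusted p = 0.0352), a call lost without undosed replicate 1 or 3 or either dox library (values between -1.21 and -0.79). The dox group has 2 libraries, which limits this test.

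*Rrs1*, *Wdr75* and *Gnl3* had the lowest values, -0.71 (SE 0.22, edgeR adjusted p = 0.116), -0.48 (SE 0.168, edgeR adjusted p = 0.15) and -0.47 (SE 0.201, edgeR adjusted p = 0.226), and *Nop10*, *Grwd1* and *Imp4*, a U3 snoRNP protein, the highest, 0.24, 0.22 and 0.21. *Gnl3* was at 68.6, 103 and 73.4 CPM without and 63.2 and 54.1 CPM with dox, and *Dkc1* at 51.9, 61.7 and 42.6 against 42 and 39.9 CPM. Both dox libraries of *Gnl3* and *Dkc1* lay below the undosed ones, *Nop56* and *Fbl* overlapped, and undosed replicate 2 was highest in each gene.

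*Npm1* was at 497, 647 and 537 CPM without and 435 and 454 CPM with dox, *Heatr1* at 47.3, 49.4 and 43.5 against 34.5 and 43.3 CPM, and *Pes1* at 120.3, 142 and 112 against 109 and 110.3 CPM. These 3 had both dox libraries below all undosed ones, and *Ncl*, *Polr1b*, *Bysl* and *Bop1* overlapped.

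In the myotube-enriched fraction edgeR called 0 of 44 higher and 0 lower, and 0% and 0% of 14112 genes tested. The counts were also 0 and 0 at an unadjusted p under 0.05 and by DESeq2. The median was 0.21 (all genes 0.04), and *Bysl*, *Gar1* and *Ddx18*, a helicase of the large subunit pathway, had the highest values (0.71, 0.62 and 0.55). *Heatr1*, *Tsr1* and *Utp20* had the lowest (-0.23, -0.13 and -0.12). These values rest on dox replicate 1, without which they were -0.03, 0.19, 0.01, 0.14, 0.09 and 0.09 in the same order. The 3 dox libraries differed widely among themselves. *Gnl3* was at 51.3, 108 and 42.5 CPM with dox and 58.8, 54.9 and 67.4 CPM without, *Dkc1* at 69.7, 50.8 and 30 against 37, 39.4 and 35.3 CPM, and *Heatr1* at 14.1, 64.8 and 31.6 against 46.3, 48.3 and 36.3 CPM. In all 3 genes the range with dox enclosed the range without. Myotube markers also ranged from 7339 to 36297 CPM over the dox libraries, and their part was not tested.

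The dox and undosed ranges of *Polr1b*, *Ncl*, *Npm1*, *Fbl*, *Nop56*, *Bysl*, *Bop1* and *Pes1* overlapped as well. *Myc* was at 21, 81.2 and 31.5 CPM with dox and 75, 16.1 and 65.1 CPM without, a log2 ratio of -0.20 (SE 0.631, edgeR adjusted p = 0.998).

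Between the fractions without dox edgeR called 0 of 44 genes higher and 0 lower in myotube-enriched cells, against 0.578% and 0.0143% of 14023 genes tested. At an unadjusted p under 0.05 there were 0 higher and 11 lower, and DESeq2 called 0 higher and 3 lower (*Npm1*, *Nop56* and *Rcl1*). The median was -0.27 (all genes 0.00). *Rcl1* had -0.72 (SE 0.19, edgeR adjusted p = 0.139), *Nop56* -0.68 (SE 0.184, edgeR adjusted p = 0.141) and *Rrs1* -0.64 (SE 0.216, edgeR adjusted p = 0.21), and *Bysl* was highest at 0.23. Same-numbered libraries of the fractions deviated together, and with the replicate number as a block 1 gene, *Rcl1*, was lower. In 1 fit of all libraries 6 were lower. Shares over all genes at these other settings are not given, so their counts have no background beside them. *Myc* had -0.49 (SE 0.463, edgeR adjusted p = 0.632). The fractions did differ in myotube markers, of which 6 of 18 were higher, summed 9882 ± 2570 CPM (SD, n = 3) in the myoblast-enriched and 25777 ± 6219.5 CPM in the myotube-enriched fraction.

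With dox the fractions gave 0 higher and 0 lower of 44 by edgeR, 0 and 0 at an unadjusted p under 0.05 and 0 and 0 by DESeq2, against 0% and 0% of 14291 genes tested. The median was 0.08 (all genes 0.05), below 0 at -0.12 when scaled to the total count alone, with *Rcl1* lowest at -0.52 and *Bysl* highest at 0.77, or 0.06 without myotube-enriched dox replicate 1. *Myc* had 0.29 (SE 0.582, edgeR adjusted p = 1). The dox effects of the fractions gave no call for the 44 genes in the edgeR test of the difference (0 higher and 0 lower, 0 and 0 at an unadjusted p under 0.05), and the shares over all genes were 0% and 0% of 15008 genes tested. The median of this difference was 0.32, and *Myc* had 0.76 (SE 0.827, edgeR adjusted p = 1).

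Both adhesion lines showed lower ribosome biogenesis genes with dox at 48 h. In C2C12 iCdh23 39 of 44 fell, against 32.4% of 14227 genes tested, 21 over 2-fold (all genes 17%), and 1 rose (all genes 31.3%). In C2C12 iMcam 39 fell, against 24.8% of 13730, 15 over 2-fold (all genes 9.85%), and edgeR called 0 higher, 0 at an unadjusted p under 0.05 and 0 by DESeq2 (all genes 24.2%). Medians were -0.94 and -0.88 (all genes 0.00 and 0.02). *Myc* fell from 40.9, 47.6 and 61.5 to 8.47, 5.63 and 9.34 CPM in C2C12 iCdh23, a log2 ratio of -2.68 (SE 0.234, edgeR adjusted p = 5.8e-05). In C2C12 iMcam it fell from 48.2, 59.3 and 56.3 to 20.2, 22.7 and 21.3 CPM, a log2 ratio of -1.32 (SE 0.11, edgeR adjusted p = 0.000216).

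Marker levels moved far in both lines. All 14 proliferation markers fell, summed 1469.9 ± 65.3 CPM (SD, n = 3) without and 151 ± 15 CPM with dox in C2C12 iCdh23 and 1247 ± 101 CPM and 277 ± 49.2 CPM in C2C12 iMcam. Of 18 myotube markers 18 and 15 fell, summed 9065 ± 3288 CPM and 105 ± 66.8 CPM in C2C12 iCdh23 and 7546 ± 3681 CPM and 1119 ± 832 CPM in C2C12 iMcam. Of 6 myoblast markers, *Myod1* among them, 5 fell in each line, summed 2202 ± 209 CPM and 489 ± 41 CPM in C2C12 iCdh23 and 2021 ± 462 CPM and 756 ± 203 CPM in C2C12 iMcam. *Des* was the top gene of these sums. In the fractions without dox *Des* was at 2179 ± 385 CPM in myotube-enriched and 1004 ± 225 CPM in myoblast-enriched cells, with no call. The sums thus do not stand for myoblasts alone. With dox in C2C12 iMyoD1 2, 3, 1 and 1 of the 6 myoblast markers rose and 1, 3, 4 and 2 fell at 0, 24, 48 and 120 h (whole cultures). The part of all these markers in the fall of the ribosome biogenesis genes was not tested.

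*Rrp12*, *Rrs1* and *Gnl3* were the 3 lowest in both lines. In C2C12 iCdh23 they had -2.35 (SE 0.138, edgeR adjusted p = 1.15e-05), -2.16 (SE 0.11, edgeR adjusted p = 7.36e-06) and -2.10 (SE 0.105, edgeR adjusted p = 7e-06), and in C2C12 iMcam -1.71 (SE 0.278, edgeR adjusted p = 0.00229), -1.56 (SE 0.106, edgeR adjusted p = 0.00015) and -1.65 (SE 0.238, edgeR adjusted p = 0.00142). *Gnl3* was at 68.9, 75.9 and 70.1 CPM without and 15.7, 15.7 and 18.8 CPM with dox in C2C12 iCdh23 and at 66.8, 69.3 and 109 against 21.8, 21.4 and 33 CPM in C2C12 iMcam. No dox library of *Gnl3* came near the undosed ones in either line.

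The snoRNP genes fell together. *Nop56* was at 116, 123 and 109 CPM without and 32.2, 32.4 and 38.2 CPM with dox in C2C12 iCdh23 (-1.76, SE 0.104, edgeR adjusted p = 1.18e-05), and at 121, 122 and 171 against 40.5, 40.8 and 59.4 CPM in C2C12 iMcam (-1.52, SE 0.192, edgeR adjusted p = 0.000854). In the same order, *Dkc1* was at 55.6, 55.5 and 47.9 against 17.2, 20.5 and 20.7 CPM (-1.45, SE 0.108, edgeR adjusted p = 2.9e-05), and at 49.4, 53.4 and 70.5 against 21.8, 19.3 and 27.2 CPM (-1.31, SE 0.172, edgeR adjusted p = 0.000992). *Fbl* was at 64.6, 55.8 and 49.3 against 27.1, 31.9 and 30.4 CPM (-0.93, SE 0.119, edgeR adjusted p = 0.000374), and at 58.8, 58.4 and 70.3 against 30.3, 29 and 33.6 CPM (-0.98, SE 0.106, edgeR adjusted p = 0.000496). None of the 3 overlapped between dox and no dox in either line. *Nop10* was the exception in both, at 0.00 and 0.06 with no call.

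Among scaffold proteins *Npm1* was at 449.6, 452 and 339 CPM without and 133, 175 and 151 CPM with dox in C2C12 iCdh23 (-1.43, SE 0.149, edgeR adjusted p = 0.00013), and at 443, 417 and 471 against 229.5, 219 and 240.1 CPM in C2C12 iMcam (-0.91, SE 0.0872, edgeR adjusted p = 0.000334). *Ncl* fell less, from 614, 641 and 609 to 417, 517 and 436 CPM (-0.45, SE 0.101, edgeR adjusted p = 0.00589) and from 655, 644 and 799.7 to 426, 422 and 523 CPM (-0.58, SE 0.127, edgeR adjusted p = 0.00779). *Polr1b* went from 27.3, 22.8 and 25.3 to 19, 20.6 and 19.4 CPM in C2C12 iCdh23 (-0.36, SE 0.103, edgeR adjusted p = 0.018), a call lost without dox replicate 1 or 3 (values between -0.43 and -0.30). In C2C12 iMcam it went from 28.1, 30.2 and 38.5 to 17.8, 17.6 and 22.2 CPM (-0.71, SE 0.147, edgeR adjusted p = 0.00607). The dox libraries of *Npm1*, *Ncl* and *Polr1b* lay below the undosed ones throughout.

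*Heatr1* was at 54, 59.3 and 62.8 CPM without and 29, 27.1 and 25.1 CPM with dox in C2C12 iCdh23 (-1.12, SE 0.096, edgeR adjusted p = 5.26e-05), and at 58.1, 63.9 and 77.5 against 28.9, 27.4 and 37.4 CPM in C2C12 iMcam (-1.05, SE 0.151, edgeR adjusted p = 0.00141). In the same order, *Bysl* was at 56, 47.8 and 46.5 against 36.7, 34.7 and 35.5 CPM (-0.50, SE 0.0989, edgeR adjusted p = 0.00329), and at 51.7, 53.6 and 68.1 against 32, 31.3 and 35 CPM (-0.78, SE 0.121, edgeR adjusted p = 0.00186). *Pes1* was at 113, 119.7 and 109 against 47.9, 49.8 and 47.1 CPM (-1.24, SE 0.077, edgeR adjusted p = 1.38e-05), and at 109, 104 and 130.2 against 62.5, 58.4 and 67.9 CPM (-0.82, SE 0.107, edgeR adjusted p = 0.000944). *Bop1* was at 135, 143 and 149 against 106, 111 and 111 CPM (-0.39, SE 0.0822, edgeR adjusted p = 0.00453), and at 136, 140.2 and 163 against 96.4, 101 and 112 CPM (-0.47, SE 0.098, edgeR adjusted p = 0.00643). In C2C12 iCdh23 scaling to the total count alone, which moved the median of all genes by 0.33, left *Polr1b*, *Ncl*, *Bysl* and *Bop1* without a call and gave 3 genes higher and 29 lower. With all libraries in 1 fit *Polr1b* and *Bysl* had no call.

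The gene that rose in C2C12 iCdh23 was *Imp4*, from 33.4, 34.3 and 37.2 to 40.3, 43 and 39.4 CPM without overlap, a log2 ratio of 0.22 (SE 0.0826, edgeR adjusted p = 0.0458). Same-numbered libraries of this line deviated together, and with the replicate number as a block 0 genes rose. *Imp4* was not called by DESeq2 either (0 genes higher), or without undosed replicate 1 or 2 or any 1 dox replicate, with values between 0.19 and 0.26. *Rrp1b* had 0.18 (SE 0.0932, edgeR adjusted p = 0.119). In C2C12 iMcam, where same-numbered libraries deviated together as well, *Imp4* had -0.23 (SE 0.111, edgeR adjusted p = 0.125) and with the block -0.23 (SE 0.0693, edgeR adjusted p = 0.0321). *Ddx10* was the other gene called only with the block, -0.42 (SE 0.0715, edgeR adjusted p = 0.00378), so that 41 fell. *Rrp1b*, *Polr1c* and *Nop10* had the highest values (-0.08, -0.01 and 0.06). Outside the 44 genes, of 85 assembly factors 54 fell and 2 rose in each line (medians -0.40 and -0.38), and of 79 ribosomal proteins 73 and 62 fell (medians -0.81 and -0.43).

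In the edgeR test of unpaired groups the dox effects of the 2 lines differed for 2 of the 44 genes. In C2C12 iMcam 1 was higher (*Rrs1*) and 1 lower (*Imp4*), against 7.61% and 3.03% of 14552 genes tested. Same-numbered libraries deviated together within each line, which this test did not use, so it can miss differences. *Rrs1* had a difference of 0.58 (SE 0.148, edgeR adjusted p = 0.0273), lost without C2C12 iCdh23 undosed replicate 2 or dox replicate 2 or 3, or C2C12 iMcam undosed replicate 1 or 2 or dox replicate 1 or 3 (values between 0.51 and 0.68). *Imp4* had -0.47 (SE 0.137, edgeR adjusted p = 0.0485), lost without C2C12 iCdh23 undosed replicate 1 or 2 or any dox replicate, or C2C12 iMcam undosed replicate 2 or 3 or dox replicate 1 or 2 (values between -0.55 and -0.41). *Npm1* was also higher without C2C12 iCdh23 undosed replicate 3 (values between 0.42 and 0.63) and *Pes1* without C2C12 iMcam undosed replicate 3 (values between 0.34 and 0.51). Leaving out 1 library gave between 0 and 2 higher and between 0 and 1 lower, and both counts were 0 with all libraries in 1 fit. *Rrp12* had 0.62 (SE 0.339, edgeR adjusted p = 0.296) and no call. With the replicate number as a block in each line alone, *Rrp12* had -2.35 (SE 0.113) in C2C12 iCdh23 and -1.72 (SE 0.0871) in C2C12 iMcam. The difference between the lines was not tested with pairs within each line. The median was 0.05, and -0.07 when scaled to the total count alone. *Myc* fell less in C2C12 iMcam, by a difference of 1.34 (SE 0.268, edgeR adjusted p = 0.00916), though not with all libraries in 1 fit.

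The 44 genes lie on 17 chromosomes, with 7 on chromosome 1 and 5 on chromosome 11. Of the 44 genes 17 share exon bases with a gene on the opposite strand, *Tsr1* most at 32.3% of its exon bases (with *Srr*), then *Noc2l* at 20.9% (with *Samd11*) and *Bysl* at 9.37% (with *Ccnd3*), and their reads could not be assigned by strand, so the counts of these genes are uncertain. In 7 genes (*Nop56*, *Nop58*, *Ncl*, *Wdr43*, *Gnl3*, *Tsr1* and *Dkc1*) introns hold 21 snoRNA genes in all, 5 of them in *Nop56*. These 7 host genes fell at 24 h with dox with a median of -1.76, against -1.41 over the 44.

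Promoter sequence was at hand for 39 of the 44 genes (not for *Npm1*, *Fbl*, *Rrp12*, *Bop1* and *Rrs1*), from RefSeq on GRCm38.p6, as 250 bases before to 50 after the gene's start. Both strands were searched for CACGTG, the E-box that Myc and Max bind, for CACGCG, a variant of it, and for CAGCTG, an E-box that MyoD1 binds. CACGTG was in 9 of the 39 windows (23.1%) against 8.09% of 27025 genes, CACGCG or its other strand CGCGTG in 12 (30.8%) against 10.5%, and CAGCTG in 6 (15.4%) against 18.3%. The 27025 genes were not limited to those expressed here. A match is a description of letters and shows no binding. At 24 h with dox the 9 genes with CACGTG had a median log2 fold change of -1.47 and the 30 without it -1.41. For CACGCG these were -1.37 and -1.42, and for CAGCTG -1.39 and -1.42. The window of *Pes1* holds CACGCG at -247 and CAGCTG at -37 from the gene's start besides CACGTG. To show the Myc E-box in its place, 1 of the 9 genes with CACGTG is printed as 30 bases with the motif in capitals: *Pes1* at chr11:3963965-3963994 on the plus strand.
Pes1: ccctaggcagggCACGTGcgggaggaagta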

How the data were processed

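RNA of 47 libraries in 16 groups was sequenced from polyA selection with 150 bp paired-end reads. The authors deposited estimated counts per transcript from Salmon, in 3 tables of 12, 23 and 12 libraries, and they were used as deposited. The submitters' processing notes name mm10, state no annotation and give no Salmon version. GENCODE vM21, on GRCm38, held 98.72% of the 109617 transcripts and was used for symbols and positions. Between 30.97 and 34.36% of values were not whole (tolerance 0), so they were summed per gene (45706 genes) and rounded for the tests. Depth per library and its median open the report. Whether the reference held the transgenes is not stated.

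Groups were compared with edgeR 4.0.16 (R 4.3.3) in fits of the 2 groups alone, or of 4 for differences between dox effects, with its expression filter, TMM factors, quasi-likelihood F tests and p-values adjusted over all genes tested by the method of Benjamini and Hochberg. Scripts were tested on simulated data. DESeq2 1.42.0, other scalings, no filter, all groups in 1 fit, the replicate number as a block, leaving out each library and a 2-fold threshold were alternatives. Genes named throughout were 11 of the 44 and *Myc*, and in each comparison the 3 highest and 3 lowest of the 44 and those called against the majority. The 44 genes and the lists were chosen with earlier results of these data known.

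Same-numbered libraries of groups compared were checked for pairing by the correlation of their deviations from group means. They paired in C2C12 iCdh23 (between 0.14 and 0.279), C2C12 iMcam (between 0.412 and 0.52) and the fractions without dox (between 0.209 and 0.542), a hint from the data. No other comparison had 3 pairs all over 0.1. No 2 libraries within a group were duplicates: over 46 pairs the chi-square per gene lay between 2.95 and 377.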

Additional observations from a re-analysis of the deposited data

Results flagged for a closer look

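The dox effect was compared between groups, and 3 tests gave calls. The dox effect on the ribosome biogenesis genes at 24 h and at 0 h differed in the edgeR test for all of them, with 0 higher and 44 lower (all genes 13.3% and 20.7%), *Myc* at -3.13, *Dkc1* at -1.51 and *Polr1c* at -0.27 on the log2 scale. Between whole cultures of 120 h and 48 h, 0 were higher and 19 lower (all genes 16.8% and 17.2%), with *Myc* at -1.26, *Rrp9* at -1.36 and *Nop56* at -0.35. Between C2C12 iMcam and C2C12 iCdh23, 1 was higher and 1 lower in a test that did not use the pairing within each line. These shares were below those of all genes (7.61% and 3.03%), and both counts were 0 with all libraries in 1 fit. *Myc* was at 1.34, *Imp4* at -0.47 and *Rrs1* at 0.58. The calls of *Polr1c*, *Nop56*, *Imp4* and *Rrs1* were lost when single libraries were left out.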

How the results depend on the processing

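Counts of ribosome biogenesis genes moved by over 1.5 times in the settings named here. For dox at 0 h 36 fell, but 23 with all groups in 1 fit and 1 when a 2-fold change was also asked for. For dox at 48 h 0 rose, but 2 with the total count alone and between 0 and 2 as each library was left out (0 without undosed replicate 1, 2 without dox replicate 1), and 33 fell, 0 of them over 2-fold. For dox in whole cultures of 120 h 40 fell, 10 over 2-fold. In the myoblast-enriched fraction 0 fell with dox, but 1 with DESeq2, 1 with no filter, 7 with the replicate number as a block (2 pairs, at 0.409 and 0.569, too few to count as paired) and 1 with all groups in 1 fit. In C2C12 iCdh23 1 rose with dox, but 0 with DESeq2, 3 with the total count alone, 0 with no filter, 0 with the block, 0 with all groups in 1 fit, 0 over 2-fold and between 0 and 1 as libraries were left out (0 without undosed replicate 1), and 39 fell, 21 over 2-fold. In C2C12 iMcam 39 fell, 15 over 2-fold.

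From 24 to 48 h without dox 41 fell, 22 over 2-fold. From 48 to 120 h without dox 21 rose, 3 over 2-fold, and 9 fell, 2 over 2-fold. From 0 to 24 h with dox 36 rose, 3 over 2-fold, and 2 fell, but 1 with DESeq2, 1 with no filter, 0 with all groups in 1 fit, 0 over 2-fold and between 1 and 3 as libraries were left out. From 24 to 48 h with dox 16 rose, but 10 with the total count alone, 10 with all groups in 1 fit and 1 over 2-fold, and 15 fell, but 9 with all groups in 1 fit and 2 over 2-fold. From 48 to 120 h with dox 16 rose, 2 over 2-fold, and 19 fell, 7 over 2-fold. Between fractions without dox 0 were lower, but 3 with DESeq2, 1 with the block and 6 with all groups in 1 fit.

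In the difference between dox effects at 24 and 0 h 44 were lower, 20 over 2-fold. Between 120 and 48 h 19 were lower, but 11 with all groups in 1 fit and 2 over 2-fold. Between C2C12 iMcam and C2C12 iCdh23 1 was higher, but 0 with all groups in 1 fit, 0 over 2-fold and between 0 and 2 as libraries were left out, and 1 was lower, but 0 with no filter, 0 with all groups in 1 fit, 0 over 2-fold and between 0 and 1 as libraries were left out. The replicate block moved no other count by over 1.5 times, and the median between fractions with dox was -0.07 with it against 0.08. Medians of the 44 genes moved by 1 SD between replicates or more in 32 cases, 10 of them with the total count alone. With it 8 came nearer to 0: -0.38, -1.14, -0.25 and -0.46 for dox at 0, 24, 48 and 120 h (whole cultures), -0.61 in C2C12 iCdh23, -0.68 in C2C12 iMcam, 1.26 from 0 to 24 h without dox and -0.75 for the dox effects at 24 and 0 h. From 24 to 48 h they were -1.09 without and -0.13 with dox. Some log2 values of named genes, 136 in all, changed sign with no call in either setting. Looking only at the 27 genes with no shared exon bases was chosen after seeing the data. Of these 24 fell with dox in whole cultures of 120 h (40 of 44), 11 rose from 48 to 120 h without dox (21 of 44) and 8 with dox (16 of 44), and 11 were lower between 120 and 48 h (19 of 44), lower counts that go with the smaller set.

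The main limits are 2 or 3 libraries per group, dox given only to cells with a transgene, no batch label at 0 and 24 h, and bulk RNA, in which cell mixture and RNA per cell cannot be told apart. Myotube-enriched libraries with dox differed widely. Counts of *Npm1* and of genes with an overlapping partner on the opposite strand are uncertain. RNA levels do not measure ribosome production.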
